A study of Mus musculus with 3 samples.

Results

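Interferon-response neutrophils are the tumor neutrophils that carried several transcripts of the type I interferon program. They were picked among leukocytes of 4T1 mammary tumors, sequenced cell by cell, by a rule on the genes each cell showed. A cell was kept with at least 1500 unique molecular identifiers (UMIs, the tags that count each captured transcript once), 300 or more genes and no more than 20% of UMIs from mitochondrial genes. A kept cell was called a neutrophil when at least 3 of Csf3r, Cxcr2, Hdc, Il1r2, Retnlg, G0s2, Trem1 and Mmp9 were detected and at most 1 of Fn1, Ccr2, C1qa, C1qb, Cd3e and Nkg7. A neutrophil was called interferon-response when at least 3 of 7 genes (Ifit1, Ifit2, Ifit3, Ifit3b, Rsad2, Cmpk2 and Usp18, the rule genes below) were detected. The rule selected 1006 of 6130 neutrophils, which stood among 12472 kept cells of 16143 barcodes.

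The study asked how loss of p38α signalling changes tumor leukocytes, and it deposited 3 libraries, 1 for each condition. 4T1-luc is a luciferase-marked line of the mouse mammary carcinoma 4T1, and 200000 cells were placed in the 4th mammary fat pad of female BALB/c mice aged 6 to 8 weeks. In the vehicle library the tumor cells had intact p38α and the mice received DPBS from day 4 for 10 days. The p38i library came from mice with the same tumor cells that were given the p38 inhibitor LY2228820 at 30 mg/kg by daily gavage over the same period. In the p38KO library the implanted tumor cells were p38a-KO-H9, 1 clone with p38α (Mapk14) inactivated by CRISPR-Cas9, so the gene was lost in tumor cells and not in the host neutrophils described here, and no treatment is given in the labels. Tumors of 3 mice per condition were pooled at day 14 and live, 7AAD-negative CD45-positive cells were sorted, so each condition is 1 sample. No test between conditions could be made, and condition, pool, clone and library preparation cannot be told apart. All 95% intervals below cover counting error only.

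Type I interferons bind a receptor made of Ifnar1 and Ifnar2 and act through the kinases Jak1 and Tyk2 on the factor ISGF3, which includes Stat2 and Irf9. ISGF3 binds the interferon-stimulated response element in promoters and turns on genes that block viral translation, replication and budding, sense foreign nucleic acids and present peptides on MHC class I. Interferon-γ uses its own receptor and favours guanylate-binding proteins and immunity-related GTPases. Neutrophils are short-lived granulocytes that carry preformed granules and follow CXCR2 ligands into tissue, and neutrophils with interferon-induced transcripts are known from infection, autoimmunity and tumors.

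The cells were also read for S100a8 and S100a9, the abundant calprotectin subunits of neutrophils, which the rule did not use. Both transcripts were detected in 97.9% of the interferon-response neutrophils of the vehicle library, 98.3% of those of p38i and 94.6% of those of p38KO, against 98.8%, 98.8% and 96.9% of the other neutrophils. NK cells, which should lack both, showed them in 29.9%, 32.5% and 10% of cells, so the share of UMIs tells more. The transcripts made up a median of 10.5%, 15.3% and 7.85% of the UMIs of an interferon-response neutrophil, 15.8%, 18.2% and 13.7% in the others, and 0.0408%, 0.0355% and 0.0162% in an NK cell. Markers of other cells were low. The rule sets this in part, since Cd3e, Nkg7, Fn1, Ccr2, C1qa and C1qb are on these lists. Cells with more than 1 of them were not called neutrophils, so the sums are a description. The summed level of 5 T cell markers was 16.8, 18.5 and 46.7 CPM (the counts of a gene per 1000000 UMIs of the summed cells) in the interferon-response cells, in the order vehicle, p38i, p38KO that all lists of 3 values below keep, and that of 5 tumor cell markers was 10.4, 8.43 and 14.7 CPM. Those of 5 NK cell, 6 dendritic cell, 5 B cell and 5 mast cell markers were at most 21.9 CPM in any library, and 4 erythroid markers at most 12.8 CPM. For 8 monocyte and macrophage markers the sum was 264, 276 and 433 CPM, against 185, 164 and 336 CPM in the other neutrophils, and Ly6c2 was the most abundant of them with 38.9% of the list. Ly6c2, a surface antigen of classical monocytes, was the only gene of that list that was at least 2-fold higher in all 3 libraries, at 98.2, 142 and 156 CPM against 32.4, 26.4 and 36.3 CPM. A single cell held 63.1% of its counts in the p38i interferon-response cells. Rule-barred markers of other cells were present at 1 gene per cell in 17.6%, 15.4% and 31.8% of the interferon-response neutrophils and in 17.0%, 12.2% and 29.6% of the others.

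The interferon-response neutrophils were somewhat deeper. The median was 2598, 2429 and 2236.5 UMIs in the interferon-response neutrophils and 2427, 2154.5 and 2099 UMIs in the others, the 90th percentile 5316, 6522 and 4346 UMIs against 4386, 4416 and 3428, and the summed UMIs were 1252932, 593287 and 1221482 against 4728453, 6297577 and 2916299. The mitochondrial share had medians of 0.297%, 0.384% and 0.493% against 0.318%, 0.379% and 0.514%. The cells with the highest 5% of doublet scores of a library made up 7.24%, 6.29% and 6.08% of the interferon-response cells and 3.17%, 3.17% and 2.15% of the others, and leaving them out is among the alternatives at the end. The libraries shared 5 to 9 cell barcodes in pairs, none of them in an interferon-response neutrophil.

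The share of neutrophils with an interferon response was lowest in the p38i library and highest in the p38KO library. It was 19.1% in the vehicle library (387 of 2028, exact Clopper-Pearson interval 17.4 to 20.9%), 7.15% with p38i (175 of 2447, 6.16 to 8.25%) and 26.8% with p38KO (444 of 1655, 24.7 to 29.0%). The 3 intervals did not overlap. Since a deeper cell shows more genes, every cell was also thinned to 1500 UMIs and both rules applied again, which gave 14.3%, 4.84% and 22.05% in the same order. Of all kept cells the interferon-response neutrophils were 10.1%, 3.65% and 11.5%. With 1 pooled library per condition, the spread between mice is unknown and the differences were not tested.

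Most neutrophils of the vehicle and p38i libraries and fewer than 1 in 2 of p38KO showed none of the rule genes, and the cells with all 7 were few. In the vehicle library 54.4% of neutrophils had 0 rule genes detected, against 71.9% with p38i and 44.4% with p38KO. All 7 were detected in 42 (2.07%), 11 (0.450%) and 54 (3.26%) neutrophils. There was no gap in the distribution at the cutoff. Just inside it, cells with 3 rule genes had a summed rule gene level of 3874, 2743 and 4774 CPM, and just outside it, cells with 2 had 2113, 1161 and 2010 CPM. These values chose the cells and are given as a description.

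Other tumor leukocytes were read for the same 7 genes. Among monocytes and macrophages, whose cells were deeper (medians of 8686, 7871 and 9604.5 UMIs), at least 3 rule genes were detected in 9.04%, 9.21% and 19.3% of cells, and in 3.29%, 3.43% and 5.84% when read at 1500 UMIs. In T cells the values were 5.99%, 3.58% and 4.83%, or 2.46%, 1.34% and 2.11% at 1500 UMIs. None of 67, 83 and 50 NK cells and none of 29, 24 and 10 B cells met the cutoff. The upper exact limits were 5.36%, 4.35% and 7.11% for NK cells and 11.9%, 14.2% and 30.8% for B cells. Median depths were 3617, 3697 and 4383 UMIs in NK cells and 2466.5, 2175 and 2138 UMIs in neutrophils. Cells with more than a few neutrophil markers were not called NK or B cells. Cells with the most free RNA from neutrophils may thus have been left out, so NK and B cell shares can understate that background. At the common depth of 1500 UMIs neutrophils had 14.7%, 4.70% and 22.7%. For p38i the interval of 3.90 to 5.61% overlapped that of monocytes and macrophages, 2.08 to 5.30%, and at full depth the latter had the higher share.

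**Figure D1:**
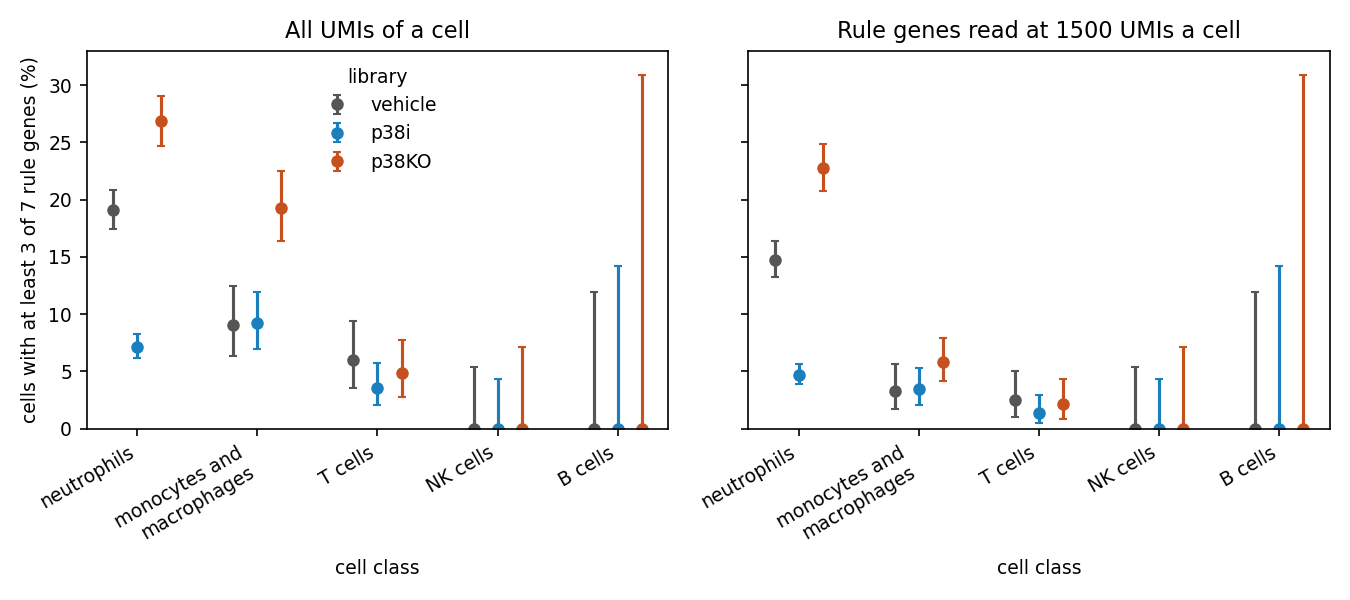
Percent of cells of each class (x axis) with at least 3 of the 7 rule genes detected, at full depth (left) and with the rule genes read at 1500 UMIs a cell (right), by library, with exact 95% intervals for counting error. In neutrophils p38i lies below vehicle (7.15% against 19.1% at full depth) and p38KO above it (26.8%), and NK cells and B cells lie at 0.

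Among the rule genes Rsad2, which encodes viperin, an enzyme that makes a chain-terminating nucleotide, was the one detected most often. It was found in 97.9%, 98.3% and 98.4% of the interferon-response neutrophils and in 23.5%, 14.1% and 27.9% of the others. NK cells, which can understate the background from free RNA, showed Rsad2 in 4.48%, 0% and 4% of cells. The level of Rsad2 was 5460, 3331 and 6680 CPM against 261, 124 and 393 CPM. Ifit1, whose product binds viral RNA that lacks the host cap methylation, was at 2188, 1214 and 2692 CPM against 59.4, 37.8 and 93.3 CPM. For both genes p38i was the lowest library and p38KO the highest, on either side of the cutoff. Usp18, which removes Isg15 from proteins and damps the receptor, was at 787, 472 and 697 CPM against 21.6, 19.2 and 34.6 CPM, and Cmpk2, a mitochondrial nucleotide kinase, at 662, 450 and 624 CPM against 10.6, 8.10 and 15.8 CPM. The remaining 3 genes, Ifit2, Ifit3 and Ifit3b, were seen in fewer cells, from 17.7% (Ifit3b with p38i) to 49.5% (Ifit3b with p38KO) of the interferon-response neutrophils and in at most 1.73% of the others.

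Summed over all neutrophils of a library, the 7 genes were lowest with p38i and highest with p38KO. These genes chose the cells, so this order goes along with the shares above and is a description. Rsad2 was at 1350 CPM in the vehicle library, 400.1 CPM with p38i and 2249 CPM with p38KO, and Ifit1 at 505, 139 and 860 CPM. The log2 ratio to vehicle over all neutrophils lay between -2.82 (Ifit3b) and -1.64 (Usp18) for p38i and between 0.34 (Usp18) and 1.06 (Ifit3b) for p38KO. Both ratios share the vehicle library.

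The rule genes lie in 3 places of the genome (GRCm38, GENCODE M21). Ifit2 (chr19:34550694-34576419), Ifit3 (chr19:34583531-34588731), Ifit3b (chr19:34607970-34613401) and Ifit1 (chr19:34640871-34650009) form 1 cluster on the plus strand. Rsad2 (chr12:26442746-26456452, minus strand) and Cmpk2 (chr12:26469204-26479837, plus strand) start back to back with 12.8 kb between them. Usp18 (chr6:121245906-121270917, plus strand) lies 19.1 kb after Tuba8, a tubulin gene that was also higher in the interferon-response neutrophils. Ifit3 and Ifit3b are near copies: of the 60-base windows in the last 500 bases of the Ifit3 transcript, 12.9% were identical in an Ifit3b transcript, and of those in the last 500 bases of Ifit3b none was identical in Ifit3. How reads of the pair were assigned was not tested.

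Promoters of these genes are shown because members that are selected together can be compared for the letters of the interferon-stimulated response element. RefSeq promoters (GRCm38.p6, 300 bases, from 250 before to 50 after the start) were searched on both strands for GAAA, any 2 bases and GAAA again. The motif was in 3.44% of 32851 promoters. It was in the promoter of 4 of the 6 rule genes with an entry, Ifit1, Ifit3, Ifit3b and Rsad2, and not within this window of Ifit2 and Cmpk2. The stretches around the matches, all upstream of the start, are printed 5′ to 3′ on the strand of the gene, with the matches in capitals (TTTC, 2 bases and TTTC is the same motif read on the other strand).
Ifit1, plus strand, chr19:34640760-34640838: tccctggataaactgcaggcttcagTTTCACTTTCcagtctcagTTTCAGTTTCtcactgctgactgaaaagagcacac
Ifit3, plus strand, chr19:34583348-34583441: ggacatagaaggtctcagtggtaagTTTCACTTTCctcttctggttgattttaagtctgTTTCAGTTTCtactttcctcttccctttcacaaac
Rsad2, minus strand, chr12:26456538-26456597: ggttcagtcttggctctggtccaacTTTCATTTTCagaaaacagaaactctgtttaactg
Isg15, minus strand, chr4:156200850-156200921: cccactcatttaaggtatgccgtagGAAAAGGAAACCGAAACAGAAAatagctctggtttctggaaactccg
Cxcl10, minus strand, chr5:92349068-92349127: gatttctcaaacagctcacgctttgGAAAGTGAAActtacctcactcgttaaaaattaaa
The stretch of Ifit3b (chr19:34607744-34607837, plus strand) is letter for letter that of Ifit3, over all 94 bases. Isg15 and Cxcl10 are genes outside the rule whose levels follow below, and in Isg15 the 3 matches overlap. They are among 10 such genes whose promoters were read singly, of which Gbp2, Ddx60 and Stat2 also had a match upstream of the start, Ifitm3 only after it, and Herc6, Irf7, Ifi47 and Oasl1 none in this window. A match is a description of letters and not a bound site.

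Beyond the rule genes the interferon-response neutrophils were set against the other neutrophils of their own library over 7792 genes with at least 50 counts over the 6 sums. In all 3 libraries 150 genes were at least 2-fold higher (1.93% of those compared) and 43 at least 2-fold lower (0.552%). The cells had been chosen on their own transcripts, so these are descriptions of what went along with the rule genes and no test was made. The median gene with at least 200 counts was slightly lower in the interferon-response neutrophils, by a log2 ratio of -0.09, -0.12 and -0.07 in the vehicle, p38i and p38KO libraries. Of the 150 higher genes, 124 had a promoter entry, and 44 of these promoters (35.5%) held the motif. Of the 43 lower genes 30 had an entry and none held it, and over all genes compared the share was 4.46%.

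Interferon transcripts were at or under the counting floor in these cells. Of 20 genes for type I, II and III interferons, none reached 50 counts over the neutrophils of all libraries. The interferon-response neutrophils held 1 UMI of Ifng in the p38i library and none of any interferon in the others. A sum at 0 does not show that a gene is absent, and the floor used for such a sum was 3 counts. The other neutrophils held 3, 2 and 2 UMIs of Ifng, with 1 of Ifnk in each of the p38i and p38KO libraries and 1 of Ifnb1 in the p38KO library. Among kept cells that were not neutrophils Ifng was seen in 130, 141 and 131 cells, and Ifnb1, the type I interferon most readily induced outside plasmacytoid dendritic cells, in 0, 2 and 3 cells with 0, 2 and 10 UMIs.

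Interferon receptors were detected at about the same level on both sides. The median log2 ratio of 6 receptor genes was -0.04, with 0 of 6 higher and 0 lower. Over all genes compared 1.93% were higher and 0.552% lower, so these counts are near those shares. Ifnar1 was at 70.2, 97.8 and 94.1 CPM in the interferon-response neutrophils and 68.7, 63.4 and 91.6 CPM in the others, and Ifnar2 at 228, 229 and 247 CPM against 220, 188 and 226 CPM. Ifngr1, the ligand-binding chain for interferon-γ, was at 150, 174 and 152 CPM against 216, 213 and 226 CPM, lower in each library by less than 2-fold.

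Of 13 kinases and factors of the pathway, Stat2 and Irf7 were at least 2-fold higher in all 3 libraries and none was lower. Stat2, the ISGF3 subunit specific to type I and III interferon, was at 203, 221 and 295 CPM against 53.7, 64.3 and 74.1 CPM, a log2 ratio of 1.90 ± 0.11 (SD over 3 libraries). The 3 libraries are 3 conditions and not replicates, so each SD here and below is a spread over conditions. Irf7, the factor that amplifies interferon production, was at 661, 445 and 817 CPM against 187, 124 and 245 CPM (1.80 ± 0.05). For both genes the lowest library of the interferon-response cells was above the highest of the others. How many of all genes compared do likewise was not counted. Irf9, which binds DNA within ISGF3, differed less, with a log2 ratio of 0.79 ± 0.08. Jak1 was nearly level, at 287, 314 and 299 CPM against 299, 253 and 317 CPM.

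Sensors of foreign nucleic acid were higher as a group, with a median log2 ratio of 0.84 over 14 genes, 6 of them at least 2-fold higher and none lower. Ddx58, which encodes the RNA sensor RIG-I, was at 239, 244 and 339 CPM against 60.7, 61.8 and 75.4 CPM (log2 ratio 2.04 ± 0.11, SD over the 3 conditions). Eif2ak2, the kinase PKR that stops translation on double-stranded RNA, had the largest log2 ratio of the RNA sensors, 2.48 ± 0.41, and Ifih1, Dhx58, Cgas and Zbp1 were the other 4. Tlr13, a Toll-like receptor for bacterial RNA, differed little, at 131, 91.0 and 108 CPM against 113, 81.1 and 107 CPM.

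Antiviral effectors made up the largest group. Of 58 measured genes outside the rule 45 were at least 2-fold higher in all 3 libraries and none lower, and the median log2 ratio was 1.82 (2.12, 1.62 and 1.77 in the vehicle, p38i and p38KO libraries) against -0.17 over all genes compared. Isg15, a ubiquitin-like protein that is joined to other proteins, was at 5922, 3413 and 6275 CPM against 1239, 791 and 1578 CPM (2.12 ± 0.13). It was detected in 99.5%, 100% and 99.5% of the interferon-response neutrophils and in 67.3%, 59.5% and 70.4% of the others. NK cells, which can understate the background from free RNA, showed it in 1.49%, 1.20% and 4% of cells.

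The genes with the largest ratios in the library where it was smallest were mostly of this group. Trim30c, a member of an interferon-induced tripartite motif family, was at 144, 121 and 201 CPM against 10.2, 12.7 and 14.7 CPM (3.61 ± 0.31). Slfn9, of the Schlafen family, was at 39.9, 43.8 and 76.1 CPM against 4.44, 5.40 and 8.92 CPM (3.09 ± 0.07), and Ifit1bl2, a relative of Ifit1, at 146, 138 and 187 CPM against 17.6, 16.7 and 24.0 CPM (3.02 ± 0.05). In each of these the lowest library of the interferon-response cells was above the highest of the others. The genes were picked for their large ratios, so this is a description. Herc6, the ligase that joins Isg15 to its targets in mice, had a log2 ratio of 2.64 ± 0.04, Ddx60, a helicase that promotes RIG-I signalling, 2.61 ± 0.24, and Tor3a, an ATPase of the endoplasmic reticulum, 2.82 ± 0.35. Nt5c3, a nucleotidase, and Trim30d completed the effectors among the top 12, with 2.73 ± 0.51 and 2.91 ± 0.59, and Trim30d, with 52 counts over all neutrophils, overlaps the gene Gm16464 on the same strand. Against other neutrophils matched on UMIs the log2 ratio of Trim30d was 1.57 and that of Slfn9 4.23.

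A few of the top 12 are not on a list of effectors. Tuba8 was at 38.3, 20.2 and 36.8 CPM against 4.02, 1.59 and 2.40 CPM (3.62 ± 0.35) and was detected in 37, 12 and 40 interferon-response cells. It overlaps Gm15856 on the opposite strand. Enpp4, an ectonucleotidase, was at 12.8, 11.8 and 14.7 CPM against 0.85, 1.27 and 1.71 CPM, and Tent4a, a poly(A) polymerase, at 23.9, 30.3 and 38.5 CPM against 2.96, 2.86 and 7.20 CPM. Both rest on few molecules, with 58 counts of Enpp4 and 148 of Tent4a over all neutrophils.

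Some effectors were not higher. Ifitm1 and Ifitm2, the interferon-induced transmembrane proteins that are abundant in resting neutrophils, were lower by less than 2-fold, at 6138, 8527 and 3895 CPM against 8723, 9450 and 5774 CPM for Ifitm1 and a log2 ratio of -0.40 ± 0.25 for Ifitm2. Their neighbour in the family Ifitm3 was higher, at 5841, 5178 and 5506 CPM against 2070, 2100 and 1975 CPM (1.43 ± 0.11). Samhd1, which depletes nucleotides, and Slfn1 had ratios below 2-fold in each library. Trim25, the ligase that activates RIG-I, was level in the vehicle library (69.4 against 69.2 CPM) and higher in p38i (140 against 69.4 CPM) and p38KO (169 against 93.6 CPM).

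**Figure D2:**
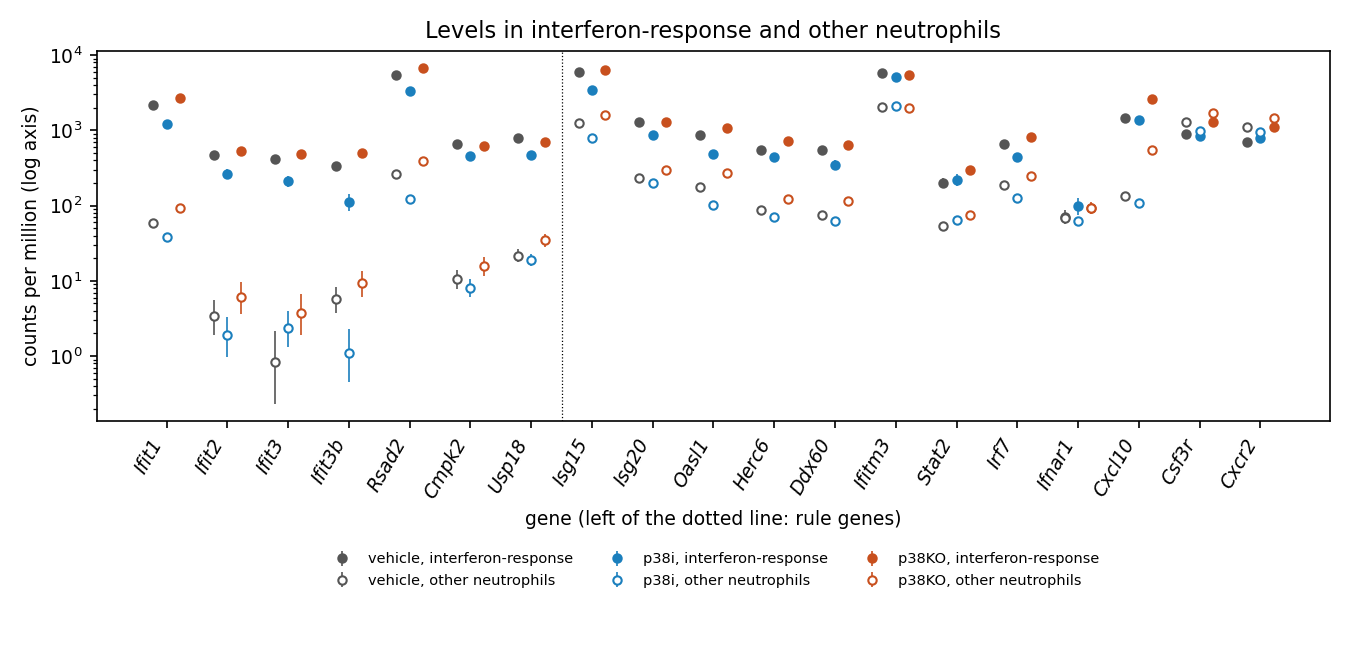
Level of 19 genes (x axis) in CPM on a log axis, in interferon-response neutrophils (filled) and other neutrophils (open) of each library, with exact Poisson 95% intervals. The 7 rule genes left of the dotted line chose the cells, while Isg15 (5922, 3413 and 6275 CPM against 1239, 791 and 1578 CPM), Stat2 and Irf7 were not used by the rule, and Ifnar1, Csf3r and Cxcr2 differ by less than 2-fold.

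The share of UMIs from antiviral genes outside the rule had a higher median at each further rule gene detected, in all 3 libraries. In the vehicle library they took a median of 2.24% of the UMIs of a cell with 0 rule genes, 3.22% with 2, 3.51% with 3 and 6.03% with 7. The p38i medians were 2.19%, 2.73%, 3.64% and 5.95% and those of p38KO 2.03%, 2.79%, 3.68% and 5.94%. At 7 rule genes the quartiles were 4.50 to 7.25%, 4.84 to 7.08% and 4.24 to 7.54%, so the libraries overlapped widely at a given number of rule genes. Over all cells past the cutoff the medians were 4.26%, 4.04% and 4.27%, and over the others 2.39%, 2.25% and 2.29%. Cells are not replicates. The median depth of cells with 0 and with 7 rule genes was 2414 and 2991 UMIs in the vehicle library, 2135 and 1923 with p38i, and 2064 and 2318 with p38KO.

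**Figure D3:**
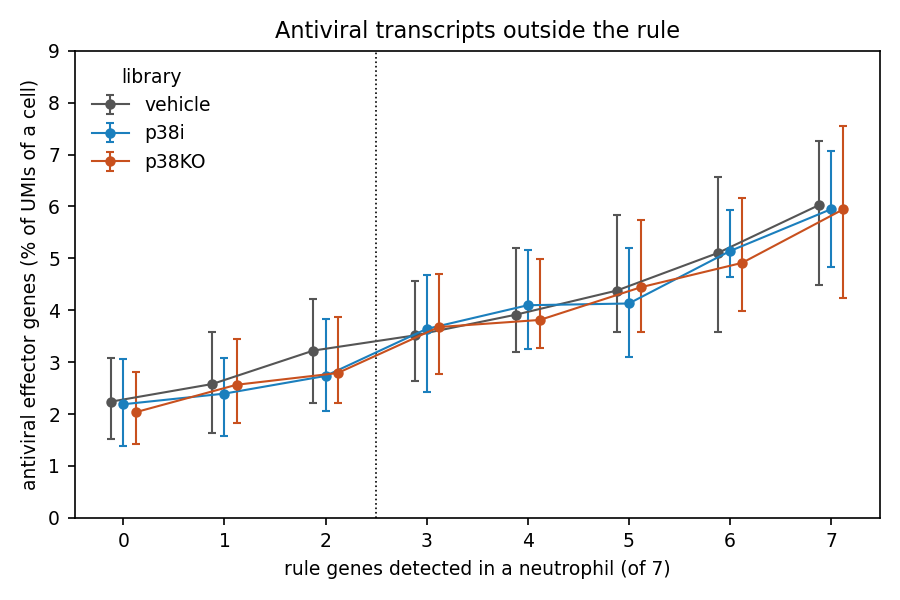
Percent of the UMIs of a neutrophil taken by antiviral effector genes outside the rule (y axis), by the number of rule genes detected (x axis) and library, as the median over cells with the quartiles as bars. The dotted line marks the cutoff, and the 3 libraries run together from about 2% at 0 rule genes to about 6% at 7.

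Guanylate-binding proteins and immunity-related GTPases, which attack the membranes around intracellular pathogens and respond strongly to interferon-γ, were also higher. Of 15 measured genes 9 were at least 2-fold higher in all 3 libraries, none was lower, and the median log2 ratio was 1.21. Gbp2b, the most abundant of them by UMIs, was at 1542, 1544 and 1853 CPM against 668, 561 and 671 CPM (1.38 ± 0.15). Gbp3 and Gbp5 had the largest ratios among those called, 2.22 ± 0.22 and 2.14 ± 0.21, and Ifi47, an immunity-related GTPase, had 1.71 ± 0.18. The promoters of 10 of the 11 genes with an entry (90.9%) held the motif. Gbp2 stands on both this list and that of effectors, and Gbp family members share sequence, so reads may be split between them.

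MHC class I presentation was higher by about 2-fold. The median log2 ratio over 20 genes was 0.99 with 5 genes past 2-fold in every library and none lower. B2m, the light chain, was at 3327, 3078 and 4076 CPM against 1855, 1729 and 2192 CPM (0.86 ± 0.03), and the heavy chain gene H2-K1 at 1243, 1155 and 1546 CPM against 604, 597 and 720 CPM (1.03 ± 0.08). H2-D1, the most abundant gene of the list, moved less (0.46 ± 0.07). The immunoproteasome subunit Psmb8 was among the 5, at 692, 617 and 759 CPM against 304, 286 and 338 CPM, together with H2-T22, H2-Q4, H2-Q6 and H2-Q7, which share sequence with each other.

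Among feedback inhibitors, Socs1, which blocks JAK kinases below the interferon receptors, was at 220, 271 and 344 CPM against 101, 125 and 144 CPM (1.17 ± 0.08). Socs3, which acts mainly on receptors of interleukin-6 and G-CSF, was lower by less than 2-fold, at 760, 688 and 1004 CPM against 1053, 836 and 1526 CPM. Socs1 and Isg15 were the 2 of 9 genes of this list that were at least 2-fold higher, and the list's median log2 ratio was -0.09.

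Chemokines and ligands that address T cells were higher in part. Of 16 measured genes 5 were at least 2-fold higher in all 3 libraries (Cxcl10, Il15ra, Il12a, Il18 and Il18bp), none was lower, and the median log2 ratio was 0.92. Cxcl10, the ligand of CXCR3 on activated T cells, was at 1454, 1360 and 2582 CPM against 133, 108 and 542 CPM, with log2 ratios of 3.45 (interval 3.32 to 3.58), 3.66 (3.51 to 3.81) and 2.25 (2.16 to 2.34). It was detected in 29.2%, 35.4% and 36.7% of the interferon-response neutrophils and in 4.27%, 5.11% and 9.33% of the others, or, at 1500 UMIs, in 25.3%, 32.6% and 33.3% against 3.47%, 4.01% and 8.67%. In NK cells the full-depth shares were 2.99%, 0% and 2%. Most interferon-response neutrophils thus had no Cxcl10 UMI at this depth. Cxcl9, which shares its receptor, was seen in 16, 5 and 19 of the cells. Cd274, the gene for PD-L1, was at 1734, 1289 and 2062 CPM against 694, 685 and 792 CPM, past 2-fold in the vehicle and p38KO libraries and below it with p38i.

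**Figure D4:**
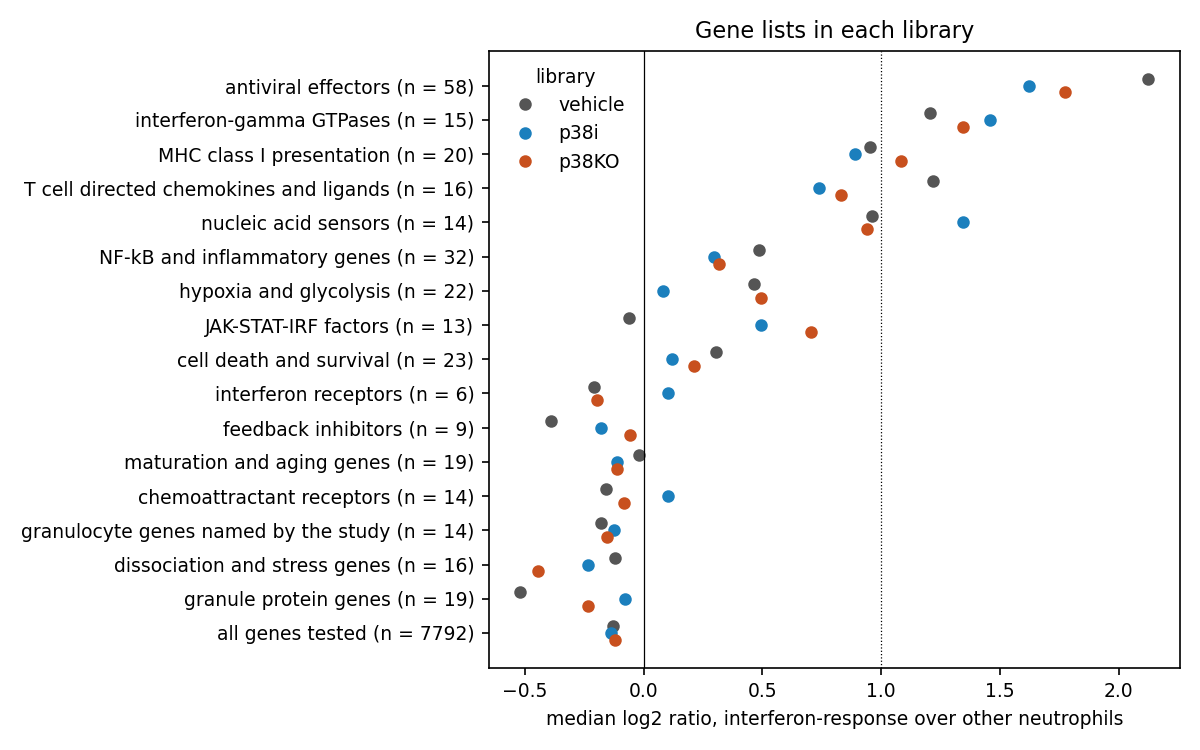
Median log2 ratio of interferon-response over other neutrophils (x axis) for 16 gene lists and for all genes compared, by library. The number of genes is given beside each name and the dotted line marks 2-fold. Antiviral effectors lie highest, at 2.12, 1.62 and 1.77, receptors, granule and maturation genes lie near or below 0, and all genes lie at -0.13, -0.14 and -0.12.

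Inflammatory genes outside the interferon pathway showed a smaller difference. Of 32 NF-κB and inflammatory genes none was at least 2-fold higher or lower in all 3 libraries, and the median log2 ratio was 0.38. The count is near the shares over all genes compared, 1.93% higher and 0.552% lower. Cxcl2, the most abundant of the list and a CXCR2 ligand, was at 16575, 8810.2 and 10827 CPM against 11085, 7091 and 10607 CPM, and Il1b was lower by less than 2-fold, with log2 ratios of -0.38, -0.31 and -0.48. Nfkbia, the inhibitor that NF-κB induces, was at 2061, 1761 and 2296 CPM against 1067, 967 and 1407 CPM. Sod2 and Icam1 were higher in each library but not past 2-fold in all of them. Ccrl2, an atypical receptor that holds chemerin at the cell surface, was at 3169, 2082 and 3566 CPM against 1323, 846 and 1543 CPM (1.26 ± 0.05). It was the only one of 14 chemoattractant receptor genes at least 2-fold higher, and Cxcr2 itself was lower by less than 2-fold, at 707, 797 and 1102 CPM against 1114, 955 and 1439 CPM. Cxcr2 is among the genes that called a cell a neutrophil, so its level is set in part by that rule.

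Granule protein genes, many of which neutrophils transcribe early in the bone marrow, were not higher. The list also holds S100a8 and S100a9, the calprotectin subunits, which stay abundant in these cells. S100a9 made up 53.4% of the list's counts in the interferon-response neutrophils. Of 19 measured none was at least 2-fold different in all 3 libraries and the median log2 ratio was -0.32. That count is near the shares over all genes compared, 1.93% higher and 0.552% lower. S100a8 was at 55429, 78630 and 42727 CPM against 74775, 83058 and 58331 CPM and S100a9 had log2 ratios of -0.50, -0.19 and -0.55, lower in each library. Anxa1, an anti-inflammatory protein stored in granules, was at 321, 681 and 313 CPM against 910, 822 and 646 CPM. A maturation marker, Cd101, was the only gene of 19 on its list past 2-fold in every library. It was lower, at 10.4, 1.69 and 11.5 CPM against 25.6, 18.1 and 38.4 CPM, from 13, 1 and 14 counts.

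The 8 genes ranked first among those at least 2-fold lower, by the library where the difference was smallest, were all rare. They were Anapc4, Rfx2, Tbc1d10c, Klf5, Naprt, Mrpl19, Klhdc2 and Abca13, each with at most 8 counts in the interferon-response cells of any library. Tbc1d10c, which restrains Ras and calcineurin in immune cells, had the most counts over all neutrophils (313), at 4.79, 3.37 and 6.55 CPM against 18.6, 21.0 and 26.4 CPM from 6, 2 and 8 counts. Cells were also chosen on a random part of their UMIs, with at least 2 rule genes in that part, and measured on the rest. This took 444, 217 and 503 cells and compared 6363 genes, and 112 of the 150 higher genes and 8 of the 43 lower genes were found again.

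Lists of cell death, hypoxia, maturation and dissociation stress genes held no gene at least 2-fold higher in all 3 libraries. Over all genes compared 1.93% were higher, and none in lists this short is near that share. Median log2 ratios were 0.28 over 23 cell death and survival genes, 0.29 over 22 hypoxia and glycolysis genes, -0.04 over 19 maturation genes and -0.29 over 16 genes of dissociation stress. Casp8, an apoptosis initiator, was past 2-fold in the vehicle and p38KO libraries and just below it with p38i, at 247, 194 and 285 CPM against 89.2, 98.6 and 85.0 CPM. The 14 granulocyte genes that the study names, which it chose on these samples and which are not independent evidence, had a median of -0.13 with Ccrl2 as the only one past 2-fold.

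Transcripts by which tumor neutrophils can be split were found in these cells in different shares. Cxcr2 and Mmp9 are among the 8 genes that called a cell a neutrophil, so shares that use them are set in part by that rule and are a description. Cells with Cxcr2 and Mmp9 made up 31.5%, 40.0% and 33.6% of the interferon-response neutrophils and 48.8%, 44.9% and 50.5% of the others, or at 1500 UMIs 18.9%, 28.6% and 20.3% against 33.8%, 30.1% and 39.7%. Cells with Ccl3 and no Cxcr2 were 27.9%, 16.0% and 21.4% against 14.5%, 13.9% and 10.4%. F3, the gene for tissue factor, the trigger of coagulation, was detected in 34.9%, 33.1% and 29.1% against 14.1%, 18.5% and 14.4%. At 1500 UMIs F3 stood at 25.3%, 26.3% and 21.2% against 10.2%, 13.4% and 11.1%, and no NK cell showed it.

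Within the interferon-response neutrophils p38i was compared with vehicle over 3048 genes with at least 50 counts over both libraries. 26 genes (0.853%) were at least 2-fold higher and 67 (2.2%) at least 2-fold lower. With the cells chosen at 1500 UMIs the split was 43 higher and 44 lower, of which 6 and 18 were among the 26 and 67. In the other neutrophils 140 of 6903 genes (2.03%) were higher and 35 (0.507%) lower, and over all neutrophils 106 of 7204 (1.47%) and 61 (0.847%). Antiviral effectors were mostly a little lower, with 45 of 51 below 0 and a median log2 ratio of -0.32, against 1465 of 3041 below 0 and a median of 0.02 over all genes compared outside the rule. Among the effectors 5 were at least 2-fold lower (Phf11b, Ms4a4c, Ifi209, Ifi27l2a and Ifi204) and 1, Trim25, was higher. Without the cells with class II transcripts described below, Phf11b and Ifi204 were at -0.27 and -0.24 in place of -2.01 and -1.11, from 2 and 11 p38i counts, and the ratios of the other 3 were still past 2-fold, those of Ms4a4c and Ifi209 from 2 p38i counts each. Over all neutrophils their median was -0.46 with 50 of 56 below 0, and over the other neutrophils -0.07 with 28 of 53 below 0, where all genes had medians of 0.10 and 0.09. Isg15 was lower in the interferon-response cells by a log2 ratio of -0.79, in the others by -0.65 and over all neutrophils by -1.13. A sum over all neutrophils mixes how many cells respond with the level in each. A sum over the interferon-response cells in turn mixes cells with few and with many rule genes. Exactly 3 were detected in 68 of 175 p38i and 114 of 387 vehicle cells, and all 7 in 11 and 42. How much of the ratios goes along with this was not tested.

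Of the genes with the largest p38i ratios in the interferon-response cells, Camp, Ngp, Ltf and Irf8 rested on few cells. Camp, Ngp and Ltf, which encode the granule proteins cathelicidin, neutrophilic granule protein and lactoferrin, were at 452, 772 and 202 CPM with p38i and 19.95, 67.0 and 30.3 CPM with vehicle. A single p38i cell held 97.0% of the Camp counts, and 1 cell held 84.7% of those of Ngp and 82.5% of those of Ltf, and 5 of 175 cells held 96.2% of the 3 genes together. Irf8, a factor of monocytes and dendritic cells, was at 135 against 23.1 CPM, with 71.2% of its counts in 1 cell. Saa3, an acute-phase protein, was spread over more cells, 51 of 175 with p38i and 39 of 387 with vehicle, at 1237 against 365 CPM (log2 ratio 1.76, interval 1.59 to 1.93), and it differed likewise in the other neutrophils (1.67). Stfa3, a stefin, was at 185 against 71.8 CPM in 22 and 23 cells. When the cells were chosen at 1500 UMIs no count of Camp was left in either library, the log2 ratio of Ltf was 0.04 in place of 2.74, that of Stfa3 0.75 in place of 1.37 and that of Irf8 -0.57 in place of 2.54, while that of Ngp was 4.14 in place of 3.53, from 15 and 2 counts. Without cells with at least 10 UMIs of Ngp, Camp and Ltf, a setting added after seeing the data, Camp had 3 counts against 1, Ngp a log2 ratio of 1.16 in place of 3.53 from 12 counts each, and Ltf 0.29.

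On the lower side, H2-Eb1 and H2-Aa, chains of MHC class II, were at 70.8 and 148 CPM with p38i against 455 and 617 CPM with vehicle. These transcripts are not usual in neutrophils, and 16 of 387 vehicle cells that showed at least 3 of Cd74, H2-Aa, H2-Ab1 and H2-Eb1 held 93.2% of the counts of these 4 genes. Such cells were 4.13%, 2.86% and 6.76% of the interferon-response neutrophils and 1.71%, 1.80% and 4.79% of the others, and whether they are doublets with antigen-presenting cells was not tested. Their ratios depended on which cells were summed. Without these cells, an alternative added after seeing the data, the p38i log2 ratio of H2-Aa was -0.92 in place of -2.06, that of H2-Eb1 -1.16 in place of -2.68 and that of Ms4a4c, from 2 and 11 counts, -1.41 in place of -2.67, and 48 in place of 67 genes were at least 2-fold lower. With at least 4 rule genes the ratios of H2-Aa, H2-Eb1 and Ms4a4c were larger, at -4.44, -4.45 and -4.64 from 8, 6 and 2 p38i counts, and without the top 5% of doublet scores they were -2.38, -3.49 and -2.89. With the cells chosen at 1500 UMIs they were -1.41, -1.71 and 0.43. Ms4a4c, a membrane protein of myeloid cells, was at 18.5 against 118 CPM in 5 and 17 cells. Hspa1a and Hspa1b, heat-shock chaperones that also respond to tissue dissociation, were at 30.3 and 21.9 CPM against 123 and 132 CPM, and Hspa1a was likewise lower in the other neutrophils (-2.21). Ccl3, a chemokine for monocytes and T cells, was at 885 against 3005 CPM in 83 of 175 and 240 of 387 cells. Its log2 ratio was -1.76 (-1.90 to -1.63) in the interferon-response neutrophils and -0.49 in the others, a contrast between libraries that was not tested.

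The p38KO library was compared with the same vehicle library over 3615 genes. 86 genes (2.38%) were at least 2-fold higher and 55 (1.52%) at least 2-fold lower. With median-ratio scaling in place of CPM the split was 69 higher and 75 lower. In the other neutrophils 132 of 6052 genes (2.18%) were higher and 53 (0.876%) lower, and over all neutrophils 148 of 6652 (2.22%) and 50 (0.752%). Antiviral effectors were mostly a little higher, with 40 of 52 above 0 and a median log2 ratio of 0.24 in the interferon-response cells, and 0.32 and 0.42 in the other and in all neutrophils. Over all genes compared outside the rule 2166 of 3608 were above 0 in the interferon-response cells with a median of 0.10, and the medians in the other and in all neutrophils were both 0.08. Trim25 was the only effector at least 2-fold higher, and Phf11b, Ms4a4c, Ifi203, Ifi209, Ifi44 and Ifi204 were lower. The lower calls rested on a few vehicle cells with class II transcripts, described above. Without such cells in either library the vehicle counts of Ms4a4c were 11 in place of 148 and those of Ifi44 9 in place of 96, and none of the 6 was 2-fold lower. Ifi203 was then at a log2 ratio of -0.48 in place of -1.78, and Phf11b, Ms4a4c, Ifi209, Ifi44 and Ifi204 were above 0, at 1.31, 2.17, 0.29, 1.27 and 0.38, while Trim25 was at 1.29. The 11 GTPases measured were all above 0, with a median of 0.47 and none past 2-fold. Cxcl10 was at 2582 against 1454 CPM (0.83, interval 0.74 to 0.91) in the interferon-response neutrophils, while in the other neutrophils it was at 542 against 133 CPM (2.03).

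The genes with the largest p38KO ratios were spread over many cells of that library. Il1a, an alarmin of the interleukin-1 family, was at 242 against 71.8 CPM in 94 of 444 and 51 of 387 cells (log2 ratio 1.75, interval 1.41 to 2.11). Tlr2, the receptor for bacterial lipoproteins, was at 237 against 96.6 CPM (1.30, 0.99 to 1.62), and Trim25 at 169 against 69.4 CPM (1.28, 0.91 to 1.66). Dgkz, a diacylglycerol kinase, was at 86.0 against 31.1 CPM, Spata13, an exchange factor for small GTPases, at 112 against 43.1 CPM and Creb5, a factor of the ATF family, at 67.1 against 27.1 CPM, with 41.2% of its vehicle counts in 1 cell. The log2 ratio of Creb5 was 1.31, and 2.09 with 4 rule genes, 2.08 with the cells chosen at 1500 UMIs and 2.21 without class II cells. In the other neutrophils Il1a, Tlr2 and Creb5 had log2 ratios of 1.27, 0.85 and 2.04 and Dgkz 0.35.

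Lower with p38KO were Hspa1a (30.3 against 123 CPM), the class II chaperone genes H2-DMa (18.8 against 73.4 CPM) and H2-DMb1 (18.8 against 72.6 CPM), S100a4 (30.3 against 112 CPM), and the interferon-induced Ifi203 (25.4 against 87.0 CPM) and Ifi44 (22.9 against 76.6 CPM). Of these the vehicle counts of H2-DMa, H2-DMb1, S100a4 and Ifi44 were held by few cells, 19, 18, 19 and 15 of 387. Without the cells that showed at least 3 of the 4 class II genes, an alternative added after seeing the data, H2-DMa, H2-DMb1, S100a4 and Ifi44 were higher and not lower with p38KO, by log2 ratios of 1.22, 0.63, 0.70 and 1.27, and 26 in place of 55 genes were at least 2-fold lower, 16 of them among the 55. Without the top 5% of doublet scores the same 4 genes stayed lower, at -2.18, -2.38, -3.01 and -1.82, as they did with 4 rule genes, at -1.74, -1.70, -1.15 and -1.90. Ifi203 overlaps Mndal on the same strand. With the cells chosen at 1500 UMIs Ifi44 was at -0.30, while H2-DMa, H2-DMb1 and S100a4 were not lower, at 0.020, 0.11 and 0.41.

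**Figure D5:**
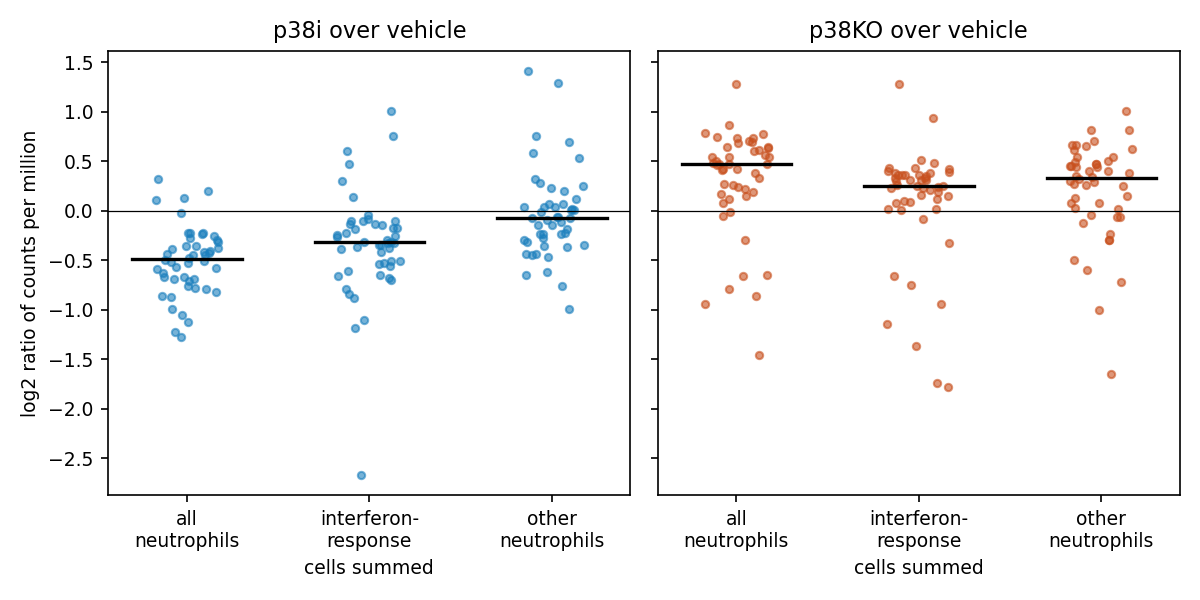
Log2 ratio of CPM to the vehicle library (y axis) for 48 antiviral effector genes with at least 200 counts, as points, with the median as a bar, summed over all, interferon-response and other neutrophils, for p38i (left) and p38KO (right). The p38i medians are -0.49, -0.32 and -0.08 and those of p38KO 0.47, 0.25 and 0.33, and both panels use the same vehicle library.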

How the data were processed

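The authors deposited raw UMI counts per gene and barcode for 3 pooled libraries of 10x 3′ single-cell RNA sequencing, made with Cell Ranger 6.0.0 per the file headers; the submitters' processing notes name mm10, R 4.2.1 and Seurat 5, and the annotation release is not given in the sources used here. Cells were filtered and chosen as stated above with Python 3.11.15 (numpy 2.4.6, scipy 1.17.1, pandas 2.3.3, scanpy 1.11.5, matplotlib 3.10.9). The members and gene lists were chosen with earlier results of these data known. The libraries held 21675352 (vehicle), 25996832 (p38i) and 25997636 (p38KO) UMIs in 4588, 6343 and 5212 barcodes. Counts were summed per library and cell group, expressed as CPM and compared as log2 ratios, with a sum at 0 set to 3 counts. Intervals were exact (Clopper-Pearson for shares, Poisson for CPM, conditional binomial for ratios, 95%). With 1 library per condition, and cells chosen on their own transcripts, no test was run. A gene was called at 2-fold or more with at least 50 counts, in all 3 libraries for interferon-response against other neutrophils, rule genes left out. Named genes were the 12 higher and 8 lower called genes with the largest change in the library where it was smallest, the 6 per direction with the largest ratio and at least 100 counts between libraries, and list members with the largest or smallest change or the highest level (mitochondrial, ribosomal, Gm, Rik and hemoglobin genes left out). Other list genes named were chosen after their values were seen. Scrublet's automatic threshold marked 2 cells per library (0.0524%, 0.0417% and 0.0518%) and did not work, so no doublet was removed. Gene positions and overlaps came from GENCODE M21 (GRCm38) and promoters from RefSeq. Naprt and Irf9 overlap Eef1d and Rnf31 on the same strand. The steps were tested on simulated data. Alternatives changed the depth, cutoff, scaling, count minimum, fold, libraries and doublets.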

Additional observations from a re-analysis of the deposited data

Results flagged for a closer look

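The share of neutrophils with an interferon response differed from vehicle by -11.9 percentage points with p38i and by 7.74 points with p38KO. The 2 contrasts lie on opposite sides of 0, share the vehicle library, and were not tested, since each condition is 1 library.

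A few named or listed genes were on opposite sides in different libraries when interferon-response neutrophils were set against the others, and these differences were not tested either. Chil3, a chitinase-like secreted protein, had log2 ratios of 2.38 with p38KO and -1.81 with vehicle, from 24 and 4 counts in 7 and 3 cells. For Creb5 the values were 1.83 with vehicle, 1.11 with p38KO and -1.40 with p38i, from 34, 82 and 4 counts. Irf8 had 1.93 with p38i, where 1 cell held 71.2% of the counts, and -1.64 with p38KO. Ltf had 1.08 with p38KO and -2.92 with vehicle, where the interferon-response cells held 38 counts. Ngp, Camp and Ltf together had 43 counts in the p38KO interferon-response cells. In the other vehicle neutrophils 13 of 1641 cells held 97.8% of the counts of these 3 genes. H2-Eb1 had 1.80 with vehicle and -1.28 with p38i, where 1 cell held 33.9% and 52.4% of the counts.

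Barcodes that failed the cell filter and entered no comparison also held cells that met both rules. Among their neutrophils the share was 12.7% in the vehicle library (40 of 315, exact interval 9.23 to 16.9%), 4.38% with p38i (39 of 890, 3.13 to 5.94%) and 18.1% with p38KO (107 of 591, 15.1 to 21.5%), the same order as in the kept cells.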

How the results depend on the processing

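The order of the shares, p38i below vehicle below p38KO, was the same under each alternative run. The vehicle, p38i and p38KO shares were 14.3%, 4.84% and 22.05% with the rules applied at 1500 UMIs, 26.8%, 12.8% and 37.3% with 2 rule genes, and 13.5%, 4.37% and 19.3% with 4, and the p38KO share was 24.5% without a cell filter. Genes lower in interferon-response neutrophils (43) numbered 19 with at least 200 counts, 271 at 1.5-fold, 28 against others matched on UMIs, 65 without the top 5% of doublet scores, and 121 to 145 with a library left out. Genes higher (150) numbered 284 at 1.5-fold. The GTPase median of 1.21 became 1.38 with 200 counts, 1.43 with matched others, 1.34 when cells were chosen on a random part of their UMIs with at least 2 rule genes, and 1.16 to 1.38 with a library left out, and the NF-κB median of 0.38 became 0.52 with matched others.

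For p38i the 26 higher and 67 lower genes became 166 and 203 at 20 counts, 6 and 16 at 200, 201 and 278 at 1.5-fold, and 43 and 44 when cells were chosen at 1500 UMIs, of which 6 and 18 were among the 26 and 67 (9 and 30 with 4 rule genes). For p38KO the 86 and 55 became 247 and 162, 27 and 11, and 416 and 177. When cells were chosen at 1500 UMIs they became 110 and 20, of which 45 and 10 were among the 86 and 55. Without cells that showed 3 of 4 class II genes, a setting added after seeing the data, they became 105 and 26, with 65 and 16 among them. Irf8 (p38i) turned to -1.61 with 4 rule genes, -0.57 at 1500 UMIs and -0.21 without class II cells, and Ms4a4c (p38i) to 0.43 at 1500 UMIs. In p38KO at 1500 UMIs H2-DMa, H2-DMb1 and S100a4 turned to 0.020, 0.11 and 0.41, and without class II cells H2-DMa, H2-DMb1, S100a4 and Ifi44 to 1.22, 0.63, 0.70 and 1.27. Beyond the fewer genes or cells these settings leave, the cause was not tested. No paired analysis between conditions was possible because each condition has 1 library. Genes with few counts, among them all 8 named as lower, are limited by depth, and no value here measures the spread between mice.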
